A study of Mus musculus with 24 samples.

Results

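SIM-A9 microglia raised 27 protein-coding genes at least 2-fold 2 h after lipopolysaccharide (LPS), while both kinds of single-walled carbon nanotube (SWCNT) left the same genes at no more than 15% above the untreated level. They encode 5 transcription factors, 6 proteins of interferon response, antigen presentation or immune checkpoint, 5 signalling proteins, 5 surface receptors and 6 others, led by the acute-phase gene Saa3. These genes were chosen by their levels: a mean of at least 3 CPM with LPS and at least 2 times the control mean, and a mean with (GT)6 SWCNT and with COOH SWCNT each at most 15% above control. CPM are counts per 1000000 reads of a library, with library sizes scaled by TMM, a factor that aligns the bulk of the genes between libraries. Of 11154 protein-coding genes tested, 235 met the LPS part of the rule and 33 of these also met the SWCNT part. The symbols of 6 of the 33 began with a stem that the rule leaves out (Ccl5, Ifit1, Il10ra, Il1f9, Irf1 and Tlr2), which left 27. All 27 passed the filter on low counts. Of the other LPS-raised genes, 169 exceeded that limit with both nanotubes, 21 with (GT)6 SWCNT alone and 12 with COOH SWCNT alone. Because the LPS, nanotube and control levels chose the genes, they are described below without a test.

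SIM-A9 is a spontaneously immortalised mouse microglial cell line, a single line without the other cells of brain. The poly-A RNA of these cells was sequenced in 24 libraries, 3 for each of 8 groups: untreated control, LPS, AAV (adeno-associated virus), SWCNT with a (GT)6 DNA wrapping, carboxylated (COOH) SWCNT, and the dyes Di-2-ANEPEQ, DiBASC2 and Fura-2, the last a calcium indicator. All groups were first kept for 2 h in serum-free medium. The labels then give 30 uL of concentrated sample on 270 uL of medium for a further 2 h, for control as for the treated groups. The labels give no dose. They do not say whether the 3 libraries of a group came from separate cultures, so p-values measure the spread between these libraries, which may be technical. Library index numbers run in blocks of 3 per group, so library order and group cannot be told apart.

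LPS, the outer-membrane glycolipid of Gram-negative bacteria, is sensed by Toll-like receptor 4 (TLR4) with its partners CD14 and MD-2. One branch through the adaptor MyD88 activates NF-kB and the MAP kinases within minutes and induces cytokines and regulators of inflammation. A second branch through the adaptor TRIF induces type I interferon, which acts back on the cell through Jak kinases and STAT factors and induces antiviral genes. In microglia, the resident macrophages of brain, LPS is a standard positive control for inflammatory activation, and it served as such in this study of probes for neurons.

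Total counts were 17364272 to 29259221 per library. In control libraries 13 of 14 microglia and macrophage markers were above 1 CPM on average, with Csf1r at 507 CPM and Cd68 at 817 CPM, but the markers that define microglia in brain were low, with P2ry12 at 2.35 CPM, Tmem119 at 4.13 CPM and Fcrls at 0.976 CPM. The 14 markers summed to 2860 to 2931 CPM in control and 2854 to 3123 CPM with LPS. No marker of astrocytes, neurons, fibroblasts or lymphocytes averaged above 1 CPM in control. Of 6 oligodendrocyte markers, Cnp and Mbp did, while Mog was at 0 in control, and their sum was 36.2 to 37.2 CPM in control and 31.9 to 35.4 CPM with LPS. In such bulk RNA fewer cells of a kind and less RNA per cell cannot be told apart.

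Of the 27 genes, 20 had a promoter window of 300 bases in RefSeq (build GRCm38.p6), from 250 bases before the transcription start to 50 after it. The stretches below are shown because they hold matches to elements of the interferon, NF-kB, STAT, AP-1 or C/EBP factors in genes of different roles. They are written 5′ to 3′ on the strand of the gene and end before the first annotated base of the gene, apart from that of Gbp2, which is limited to 30 bases around its match. Matches are in capitals.
Isg15, chr4:156200819-156201068 (- strand): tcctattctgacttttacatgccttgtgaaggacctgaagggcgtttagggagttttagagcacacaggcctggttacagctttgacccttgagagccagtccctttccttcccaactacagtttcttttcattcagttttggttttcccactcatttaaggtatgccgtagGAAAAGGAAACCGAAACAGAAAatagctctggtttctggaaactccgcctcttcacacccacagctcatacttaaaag
Gbp2, chr3:142620594-142620623 (+ strand): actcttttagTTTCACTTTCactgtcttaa
Saa3, chr7:46715701-46715926 (- strand): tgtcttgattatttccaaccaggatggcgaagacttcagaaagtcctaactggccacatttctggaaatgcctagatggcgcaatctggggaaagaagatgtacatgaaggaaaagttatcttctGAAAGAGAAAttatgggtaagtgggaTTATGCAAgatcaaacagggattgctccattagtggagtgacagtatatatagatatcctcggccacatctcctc
H2-Q7, chr17:35438905-35439154 (+ strand): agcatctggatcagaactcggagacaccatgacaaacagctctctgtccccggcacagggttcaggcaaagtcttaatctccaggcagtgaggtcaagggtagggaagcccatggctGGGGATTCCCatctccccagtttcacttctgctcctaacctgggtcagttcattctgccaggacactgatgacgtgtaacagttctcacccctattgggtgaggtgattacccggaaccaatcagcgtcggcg
Fas, chr19:34290409-34290658 (+ strand): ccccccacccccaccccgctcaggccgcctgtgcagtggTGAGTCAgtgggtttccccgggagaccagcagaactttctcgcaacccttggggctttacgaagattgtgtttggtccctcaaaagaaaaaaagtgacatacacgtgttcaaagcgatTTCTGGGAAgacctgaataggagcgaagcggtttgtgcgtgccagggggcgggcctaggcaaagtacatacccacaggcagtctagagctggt

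The RefSeq start base is position 0 in what follows. Isg15 held 3 overlapping matches to the interferon-stimulated response element, which is a pair of GAAA repeats with any 2 bases between them on either strand, between positions -78 and -57. Gbp2 held a match on the other strand from -59 to -50. The start of Gbp2 in the GENCODE annotation, used below for gene positions, is at -61, so this match lies after that start. Saa3 held a match from -125 to -116 beside a C/EBP element, TTGCNNAA on either strand, from -99 to -92. The capitals of H2-Q7 are an NF-kB consensus from -133 to -124. In Fas they are an AP-1 element (TGANTCA, either strand) from -211 to -205 and a GAS element, the TTCNNNGAA bound by STAT factors, from -93 to -85.

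The interferon-stimulated response element was in 3 of the 20 genes (15%), compared with 9.76% of 164 other LPS-raised genes and 4.02% of 16522 protein-coding genes with a window. A gene was counted if any of its windows held a match. Some genes, among them Jdp2 and Hpn, had more than 1 window and so more chances of a match. The NF-kB consensus was in 6 of 20 (30.0%), namely Gbp2, H2-Q6, H2-Q7, Hpn, Jdp2 and Lacc1, against 21.3% and 10.8%. H2-Q6 and H2-Q7 are close copies that hold the same match in nearly the same surrounding letters, so they are not independent counts. An AP-1 element was in 3 of 20 (15%, against 14% and 8.15%), a C/EBP element in 3 of 20 (15%, against 12.8% and 11.5%) and a GAS element in 2 of 20 (10.0%, against 12.8% and 9.02%). The cyclic AMP response element TGACGTCA was in none of the 20 genes, 6.1% of the other LPS-raised and 2.64% of all. In the windows of the 20 genes, matches to different elements did not overlap, while matches to 1 element overlapped each other in Isg15, H2-Q6, Hpn and Lacc1. A match is a description of letters in these windows and says nothing of binding.

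**Figure D1:**
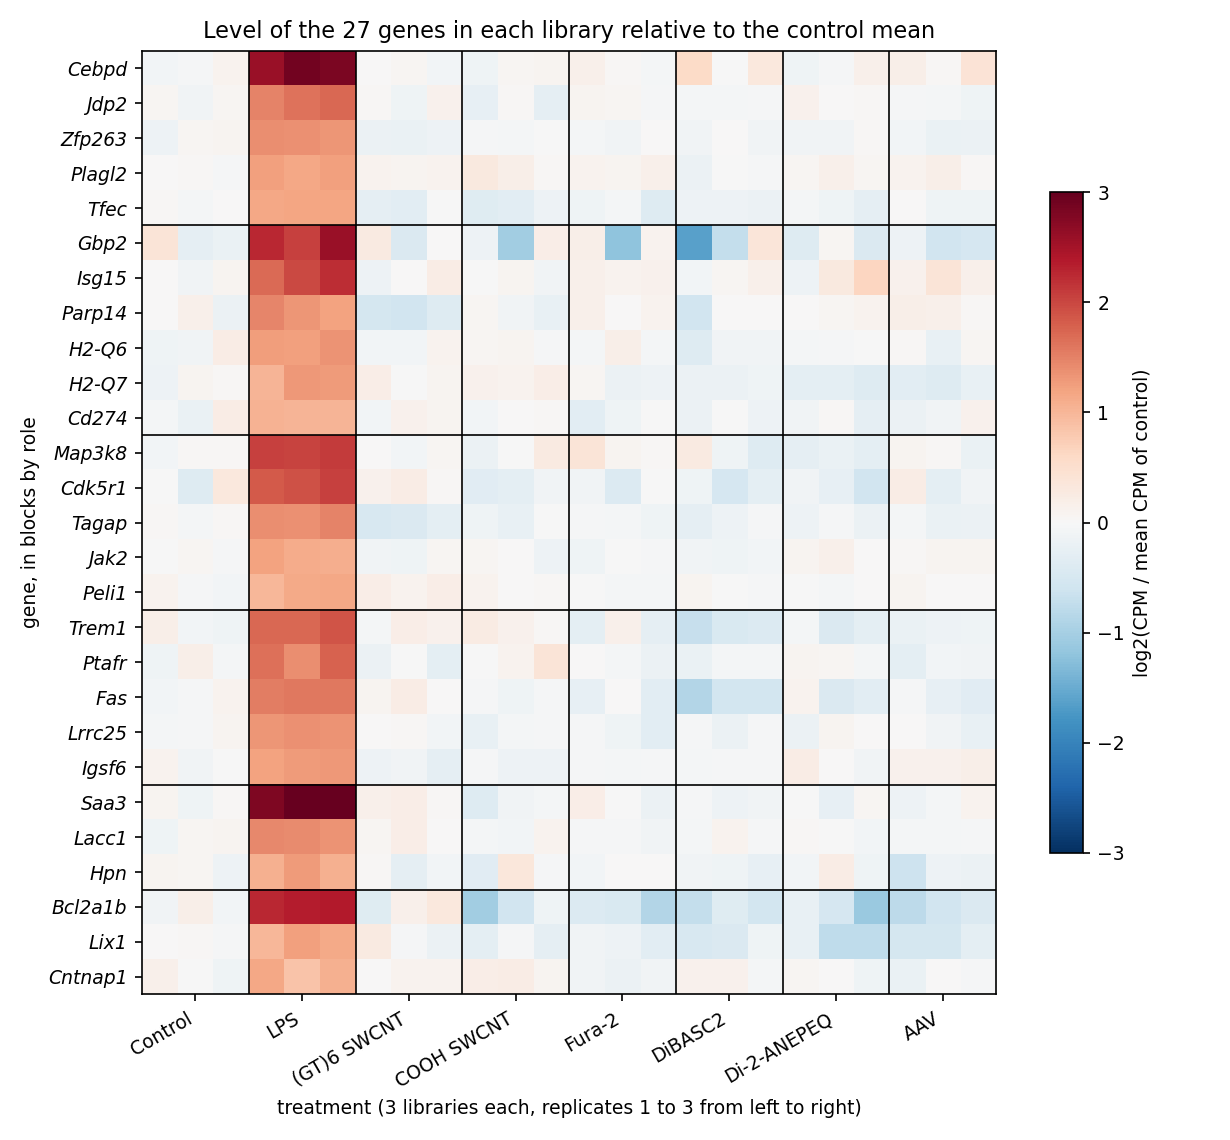
Each cell is 1 gene (row, in blocks by role) in 1 of 24 libraries (column, 3 per group), coloured by the log2 ratio of its CPM to the control mean, with colours held at 3 beyond that value. The LPS columns are red for all 27 genes, and the nanotube and probe columns stay near white for most genes, with the deepest blue cells in the rows of Gbp2, Bcl2a1b, Lix1 and Fas.

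Across the 27 genes the ratio of the LPS mean to the control mean was 2.04 to 8.18, with a median of 2.58. The 208 other LPS-raised genes had a median of 3.32. With (GT)6 SWCNT the ratios of the 27 were 0.710 to 1.13 (median 1.01) and 13 were below 1, and with COOH SWCNT they were 0.692 to 1.13 (median 0.985) and 17 were below 1. The medians of the other 208 were 1.64 and 1.37. Every LPS library exceeded every control library for all 27 genes, as the rule makes likely, whereas over all 13116 genes tested 18% were higher without overlap. With (GT)6 SWCNT 24 of the 27 overlapped the control libraries, Plagl2 was higher in every library (15.6% of all genes) and Tagap and Parp14 were lower in every library (18.7%). With COOH SWCNT 23 overlapped, Plagl2 and H2-Q7 were higher (16.6% of all genes) and Bcl2a1b and Tfec lower (17.8%). These 4 shares are background only, since the rule used both contrasts.

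**Figure D2:**
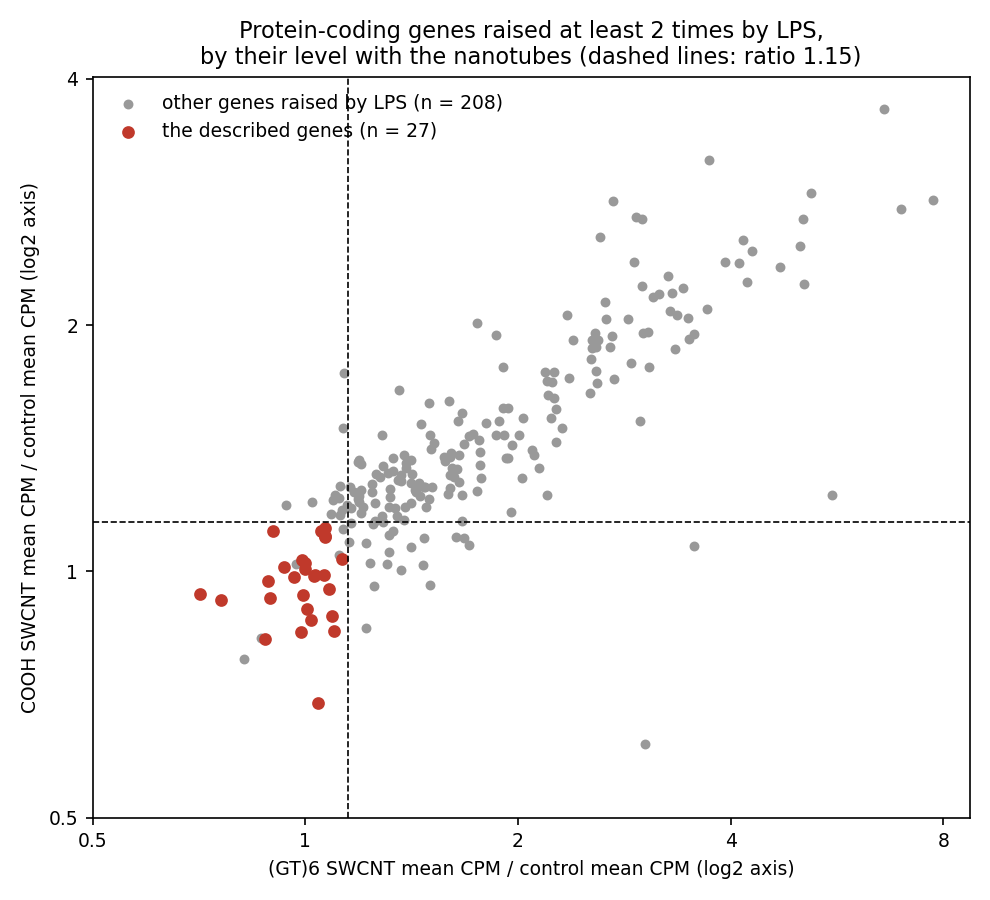
Each point is 1 of the 235 protein-coding genes raised at least 2 times by LPS, at the ratio of its mean CPM with (GT)6 SWCNT (x axis, log2) and with COOH SWCNT (y axis, log2) to the control mean, and dashed lines mark 15% above control. The 27 genes (red) fill the lower left corner by construction, between 0.710 and 1.13 on x and 0.692 and 1.13 on y. The 6 grey points there are the genes left out by symbol.

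Positions of genes are those of GENCODE M21 on GRCm38. Among the transcription factors, Cebpd (chr16:15887286-15891031) encodes C/EBP delta, which builds up in macrophages early after LPS. Its level was 9.67, 10.0 and 10.9 CPM in the control libraries and 61.4, 76.0 and 72.1 CPM with LPS, a mean of 69.9 ± 7.57 (SD, n = 3) and 6.84 times control. It was 10.3, 10.7 and 9.67 CPM with (GT)6 SWCNT and 9.33, 10.6 and 10.9 CPM with COOH SWCNT, within or next to the control range. The related Cebpb, which is not among the 27, was at 2.13 times control with LPS, 1.19 with (GT)6 SWCNT and 1.23 with COOH SWCNT. Spidr, whose exons overlap Cebpd on the other strand, was at 39.7 CPM in control and 39.9 CPM with LPS.

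Jdp2 (chr12:85599027-85639878) encodes a basic leucine zipper repressor that pairs with Jun proteins. Its 3 LPS libraries held 81.1, 89.6 and 94.3 CPM against 29.8, 26.6 and 29.7 CPM in control, 3.07 times as much. Its means were 28.9 CPM with (GT)6 SWCNT and 25.9 CPM with COOH SWCNT. Atf3, another factor that pairs with Jun proteins and is not among the 27, was at 4.35 times control with LPS, 2.59 with (GT)6 SWCNT and 1.70 with COOH SWCNT. Zfp263, a zinc finger factor, reached 78.4, 77.5 and 74.3 CPM with LPS from 26.7, 31.1 and 31.5 CPM, a ratio of 2.58, and stood at 0.886 and 0.973 times control with the nanotubes.

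Plagl2 (chr2:153227759-153241426), a zinc finger activator of the PLAG family, lay closest to the nanotube limit. Control libraries held 36.7, 37.4 and 35.8 CPM and LPS libraries 86.0, 82.5 and 85.3 CPM, 2.31 times as much. The (GT)6 SWCNT libraries held 39.3, 38.5 and 39.5 CPM and the COOH SWCNT libraries 44.8, 41.5 and 37.7 CPM. All 6 were above the highest control library, at ratios of 1.07 and 1.13. Tfec, a macrophage member of the MITF family, held 20.7, 19.3 and 20.3 CPM in control and 44.6, 45.5 and 45.3 CPM with LPS, a ratio of 2.25, and was at 0.877 and 0.826 times control with (GT)6 and COOH SWCNT.

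Of the interferon-linked genes, Isg15 (chr4:156199424-156200818) encodes a ubiquitin-like protein that is attached to other proteins after interferon. It was at 2.80, 2.55 and 2.94 CPM in control and 8.97, 11 and 12.8 CPM with LPS, a ratio of 3.95. Its nanotube means were 2.84 and 2.73 CPM. Gbp2, a GTPase that interferon induces and that acts on pathogen vacuoles, held 1.21, 0.766 and 0.801 CPM in control and 4.46, 3.86 and 5.56 CPM with LPS, a ratio of 5.00, from the lowest control level per kilobase of exon among the 27 (0.368 CPM). The fewest reads of any of the 27 genes in a control library were 15, so the nanotube ratios of Gbp2 (0.985 and 0.843) are imprecise.

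Parp14 (chr16:35832874-35871544), a mono-ADP-ribosyltransferase with a role in interferon and STAT6 signalling, moved apart between the treatments. Its control libraries held 16.1, 17.9 and 14.3 CPM, its LPS libraries 44.7, 40.4 and 37.4 CPM and its (GT)6 SWCNT libraries 11.2, 10.8 and 12.3 CPM. The LPS libraries lay above and the (GT)6 SWCNT libraries below every control library, at ratios of 2.54 and 0.710. The COOH SWCNT libraries, at 16.7, 14.9 and 13.7 CPM, overlapped control. The class I-like genes H2-Q6 and H2-Q7, of the Qa-2 group, were 2.42 and 2.29 times control with LPS and between 0.989 and 1.10 with the nanotubes. They lie 9099 bases apart on chromosome 17. Reads of such close copies may be split between them, and H2-Q4, H2-K1 and H2-D1 were at 1.58, 1.43 and 1.23 times control with LPS. Cd274 encodes PD-L1, the ligand of the inhibitory T cell receptor PD-1. It held 6.87, 6.26 and 8.44 CPM in control and 14.9, 14.5 and 14.5 CPM with LPS, at a ratio of 2.04 the smallest among the 27.

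The list of interferon-response genes held 24 further genes that were tested and are reported here. With LPS 6 were called higher (Rsad2, Mx2, Rtp4, Gbp3, Gbp5 and Nampt) and 4 lower (Oas2, Usp18, Stat2 and Ly6e), while 14 were not called, and the median log2 fold change was 0.06, against -0.01 over all genes. Gene calls here and below are at an adjusted p under 0.05 in edgeR's quasi-likelihood test, which called 13.8% of all genes higher and 14.5% lower with LPS. Nampt is better known as an enzyme of NAD synthesis. Rsad2, the antiviral enzyme viperin, was at 3.0 times control with LPS and 1.32 with (GT)6 SWCNT. Stat2, a factor of the interferon pathway, was at 0.535 times control with LPS, 0.614 with (GT)6 SWCNT and 0.780 with COOH SWCNT. With (GT)6 SWCNT 1 of the 24 was called higher and 5 lower (9.9% and 10.5% of all genes), and with COOH SWCNT none was higher and 3 were lower (9.39% and 10.6%).

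Among the signalling proteins, Map3k8 encodes the kinase Tpl2, which carries the TLR4 signal to the ERK kinases. It rose from 3.85, 4.21 and 4.22 CPM in control to 17, 16.8 and 17.4 CPM with LPS, a ratio of 4.17, with means of 4.08 and 4.19 CPM with the nanotubes. Cdk5r1 encodes p35, an activator of the kinase Cdk5 best known in neurons. It was at 2.36, 1.83 and 2.99 CPM in control and 8.64, 9.03 and 9.96 CPM with LPS, a ratio of 3.85. Jak2, the tyrosine kinase under several cytokine receptors, held 22.0, 23.1 and 21.6 CPM in control and 51.6, 48.0 and 47 CPM with LPS, a ratio of 2.2. Jak2 and Cd274 lie 54374 bases apart on chromosome 19, and the genes tested between them, Insl6 and Plgrkt, were at 0.884 and 0.927 times control with LPS.

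Peli1 encodes Pellino 1, a ubiquitin ligase of the Toll-like receptor pathway. It rose from 53.6, 48.2 and 46.7 CPM to 99.2, 108 and 111 CPM with LPS, a ratio of 2.14, and its (GT)6 SWCNT ratio of 1.13 was just inside the limit. Tagap (chr17:7926000-7934897) encodes a GTPase-activating protein that takes part in lymphocyte and antifungal signalling. Its control libraries held 21.0, 19.8 and 21.0 CPM, its LPS libraries 53.7, 53.3 and 57.5 CPM and its (GT)6 SWCNT libraries 14.8, 15.3 and 16.8 CPM. As for Parp14, the (GT)6 SWCNT libraries lay below every control library (ratio 0.760), and the COOH SWCNT libraries, at 18.8, 17.8 and 20.5 CPM, overlapped it.

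On the list of TLR4 signalling components, 26 genes other than Map3k8 were tested. With LPS 12 were called higher and 3 lower (13.8% and 14.5% of all genes), at a median log2 fold change of 0.12. With each of the nanotubes 7 were called higher (9.9% of all genes with (GT)6 SWCNT and 9.39% with COOH SWCNT). Called lower were 3 with (GT)6 SWCNT and 2 with COOH SWCNT (10.5% and 10.6% of all genes). Tlr4 itself was at 0.548 times control with LPS, 0.730 with (GT)6 SWCNT and 0.804 with COOH SWCNT, called lower in each. Irak2, an adaptor kinase below MyD88, was at 2.57, 1.60 and 1.38 times control in the same order, called higher in each.

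Of the surface receptors, Trem1 (chr17:48232768-48246924) encodes an activating receptor of myeloid cells that amplifies Toll-like receptor responses. It was at 10.8, 9.11 and 8.81 CPM in control, 31.8, 31.7 and 35.3 CPM with LPS (ratio 3.44), and 10.2 and 10.5 CPM on average with the nanotubes. Ptafr, the receptor for platelet-activating factor, held 7.91, 9.83 and 8.28 CPM in control and 27.3, 23 and 29.5 CPM with LPS, a ratio of 3.07. Fas (chr19:34290666-34327772), the death receptor for Fas ligand, held 7.86, 8.13 and 9.02 CPM in control and 24, 24.8 and 25.1 CPM with LPS, a ratio of 2.96, and averaged 8.99 and 7.95 CPM with (GT)6 and COOH SWCNT. Lrrc25, a leucine-rich repeat membrane protein of myeloid cells, was at 2.54 times control with LPS. Igsf6, an immunoglobulin-like membrane protein of myeloid cells, was at 34.5, 29.6 and 32 CPM in control and 73.6, 77.6 and 78.4 CPM with LPS, a ratio of 2.39.

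Saa3 (chr7:46711998-46715700), the serum amyloid A gene that mouse macrophages express, had the highest LPS level and ratio of the 27. It held 25.7, 22.0 and 25 CPM in control and 168, 206 and 221 CPM with LPS, a mean of 198 ± 27.5 (SD, n = 3) and 8.18 times control. It held 26.8, 27.7 and 24.9 CPM with (GT)6 SWCNT and 18.4, 22.5 and 23.2 CPM with COOH SWCNT, overlapping control in both. No control library held a read of the liver-type genes Saa1 and Saa2, and their largest count in an LPS library was 1. Lacc1, an enzyme that links macrophage metabolism to inflammatory output, rose from 33, 37.5 and 38.2 CPM to 99.0, 97.0 and 92.2 CPM, a ratio of 2.65. Ccdc122, which overlaps its exons on the other strand, was at 1.31 times control. Hpn, the membrane serine protease hepsin, was at 2.2 times control.

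Bcl2a1b (chr9:89199209-89207827) encodes an A1 protein, a survival factor of the Bcl-2 family and a textbook NF-kB target. It was at 2.91, 3.49 and 2.94 CPM in control and 14.9, 15.9 and 16.1 CPM with LPS, a ratio of 5.03, with 2.42, 3.44 and 3.87 CPM with (GT)6 SWCNT and 1.52, 2.10 and 2.84 CPM with COOH SWCNT. Its near-identical copies Bcl2a1a and Bcl2a1d were at 11.7 and 8.76 times control with LPS. Bcl2a1d, from 4.55 CPM in control, was at 1.47 times control with (GT)6 SWCNT and 1.02 with COOH SWCNT. How reads were divided among the copies is not given in the sources used here, so the value of each copy is uncertain. Lix1, at 2.47, 2.51 and 2.4 CPM in control and 4.89, 5.76 and 5.38 CPM with LPS, had a ratio of 2.17. Cntnap1 encodes Caspr, an adhesion protein best known from the axon beside the node of Ranvier, and was at 6.32, 5.62 and 5.18 CPM in control and 12.8, 10.3 and 12 CPM with LPS, a ratio of 2.05. Plekhh3, whose exons overlap those of Cntnap1 on the other strand, was at 2.53 times control with LPS, 1.32 with (GT)6 SWCNT and 1.26 with COOH SWCNT, and without strand information the reads of the pair cannot be told apart.

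**Figure D3:**
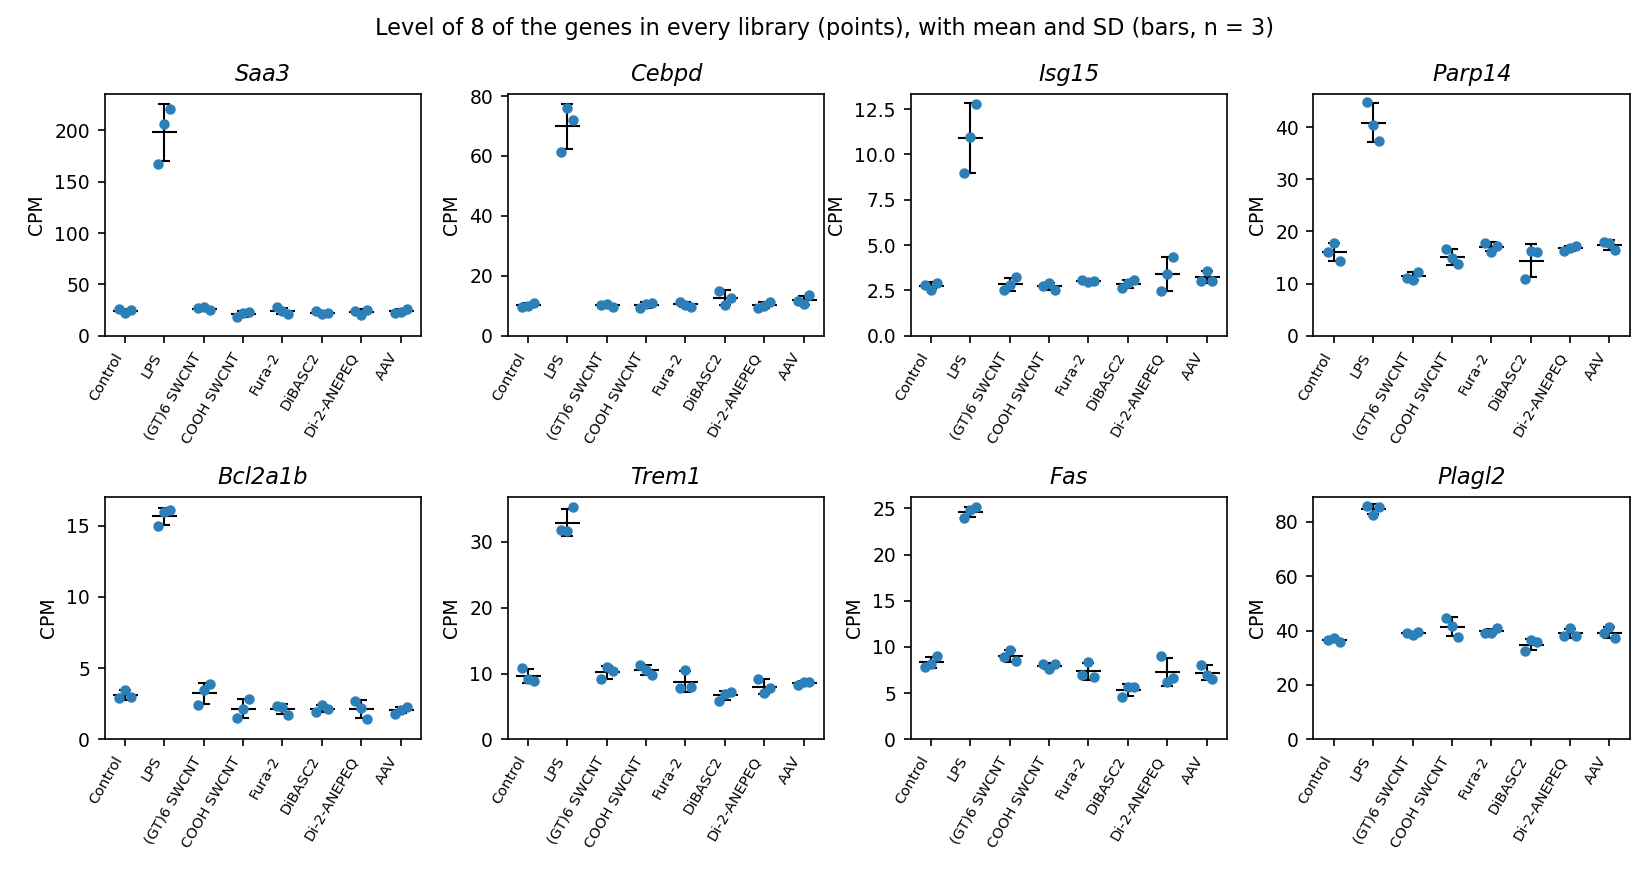
Level in CPM (y axis, from 0) of 8 of the 27 genes in every library of the 8 groups (x axis). Points are libraries and bars are the mean and SD (n = 3). The LPS libraries stand above all others in each panel, Parp14 is lower with (GT)6 SWCNT (mean 11.4 against 16.1 CPM in control), and Trem1 and Fas are lowest with DiBASC2 (6.67 and 5.31 CPM).

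Per kilobase of exon, which allows levels to be set across genes, LPS means ran from 76.0 CPM per kilobase for Saa3, 41.1 for Jdp2 and 35.2 for Igsf6 down to 1.67 for Hpn and 1.56 for Lix1. The genes were of a length like that of the other LPS-raised genes, with median exon lengths of 3637 and 3574.5 bases, and shorter than the median of 4477.5 bases over all protein-coding genes tested. Their control CPM, which bear on the precision of a ratio, were lower, with a median of 9.56 CPM against 24.2 CPM for the other LPS-raised genes and 35.7 CPM over all protein-coding genes.

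A list of NF-kB targets outside the cytokines held 37 further genes. Of these, 36 were called higher with LPS, 31 with (GT)6 SWCNT and 25 with COOH SWCNT (13.8%, 9.9% and 9.39% of all genes). Their median log2 fold changes were 2.07, 0.48 and 0.39. Saa3, Fas and Bcl2a1b are on the same list. Among 22 further chromatin and transcription regulators of macrophage activation the counts were 19, 19 and 20, and Cebpd and Jdp2 are on that list. The 2 lists share genes, among them Kdm6b, at 4.29, 2.86 and 2.03 times control. Both lists were chosen with earlier results of these data known, so their counts are a description only.

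The choice of genes rests on thresholds. Just inside the LPS limit of 2 were Cd274 (2.04) and Cntnap1 (2.05), and just outside were Lrrc8d (1.94) and Agrn (1.91). Just inside the nanotube limit were Plagl2 and Peli1 (both 1.13), and just outside were Sod2, at 1.15453 times control with (GT)6 SWCNT, and Cited2 (1.16). Nearest to the limit of 3 CPM with LPS were Gbp2 (4.63 CPM) and Lix1 (5.34 CPM) inside and Bcl2a1a (1.85 CPM) and Marco (1.62 CPM) outside. The standard errors of the log2 ratios to control were 0.05 to 0.38 with either nanotube, with a median of 0.11 in each. A true rise beyond 15% is therefore within the error for many of these genes, not for the least abundant alone.

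The 4 probes that are not nanotubes played no part in the choice, although their comparison with control reuses the control libraries that did. For all 27 genes the lowest LPS library was above every library of these probes, which the choice of genes by LPS level makes likely. The ratios to control were 0.674 to 1.13 with Fura-2, 0.637 to 1.24 with DiBASC2, 0.676 to 1.23 with Di-2-ANEPEQ and 0.662 to 1.17 with AAV. The genes more than 15% above control were Cebpd with DiBASC2 (1.24), Isg15 with Di-2-ANEPEQ (1.23), and Isg15 (1.17) and Cebpd (1.16) with AAV. None of the 27 genes was called higher in any of these probes against control, where 0.0381% of all genes were with Fura-2, 1.82% with DiBASC2, 0.686% with Di-2-ANEPEQ and 1.84% with AAV. Cebpd with DiBASC2 was called higher in 2 alternatives, without DiBASC2 replicate 2 and without a low-count filter. Fura-2, Di-2-ANEPEQ and AAV gave no call in either direction, where 0.252%, 3.08% and 5% of all genes were called, and 2, 4 and 5 of the 27 had an unadjusted p under 0.05 (10.8%, 16.5% and 20.7% of all genes). DESeq2 called none of the 27 in these 3 comparisons either.

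With DiBASC2, Fas and Trem1 fell against control, 2 of 27 genes where 3.64% of all genes were called lower. Upper-quartile scaling moved the split over all genes from 478 lower of 717 called to 296 of 657, and 241 of 333 were lower without control replicate 1. Fas held 4.54, 5.70 and 5.69 CPM with DiBASC2, below every control library, a log2 fold change of -0.65 ± 0.13 (SE; edgeR adjusted p = 0.000821). Trem1 held 5.88, 6.93 and 7.19 CPM, also below every control library, a log2 fold change of -0.52 ± 0.12 (SE; edgeR adjusted p = 0.00538). The call of Trem1 was lost without control replicate 1 (edgeR adjusted p = 0.077). Of the other 208 LPS-raised genes, 96 (46.2%) were called lower with DiBASC2 and none higher.

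Against the mean of the other 3 probes, a comparison that uses no library of the rule, 4 of the 27 genes (14.8%) were called lower with DiBASC2, and 8.15% of all genes were. Over all genes 1069 of 1802 calls were lower, 642 of 1921 with upper-quartile scaling, 701 of 1061 without DiBASC2 replicate 1 and 628 of 993 without its replicate 2. With upper-quartile scaling 3 of the 27 genes were called lower and Cebpd higher. Cebpd was also called higher without DiBASC2 replicate 2. Fas fell by 0.46 ± 0.10 on the log2 scale (SE; edgeR adjusted p = 0.0019), from 6.98, 8.39 and 6.74 CPM with Fura-2, 8.98, 6.17 and 6.64 CPM with Di-2-ANEPEQ and 8.09, 6.99 and 6.55 CPM with AAV, without overlap. Plagl2 was lower by 0.18 ± 0.05 (SE, edgeR adjusted p = 0.00772). It held 32.5, 36.4 and 35.6 CPM under DiBASC2 and 37.4 to 41.2 CPM in the 9 other libraries, also without overlap (6.04% of all genes). The control libraries held 36.7, 37.4 and 35.8 CPM, which DiBASC2 overlapped. Ratios of Plagl2 to control were 0.951 with DiBASC2, 1.08 with Fura-2 and 1.07 with both Di-2-ANEPEQ and AAV. Trem1 fell by 0.34 ± 0.10 (SE; adjusted p = 0.0146), and 1 of its 3 libraries lay within the 7.05 to 10.6 CPM of the other probes. Parp14 was lower by 0.25 ± 0.08 (SE, edgeR adjusted p = 0.0434). Its ratios to control were 0.896 with DiBASC2, 1.06 with Fura-2, 1.04 with Di-2-ANEPEQ and 1.08 with AAV. Its DiBASC2 libraries held 10.8, 16.3 and 16.1 CPM against 16.1 to 18.1 CPM, and without the first the adjusted p was 0.589 at a log2 fold change of -0.08. Without that library Trem1 and Plagl2 also lost their calls (edgeR adjusted p = 0.146 and 0.111), and Fas alone remained. With the replicate number as a block, Parp14 was not called (adjusted p = 0.058), at an unmoved log2 fold change of -0.25.

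**Figure D4:**
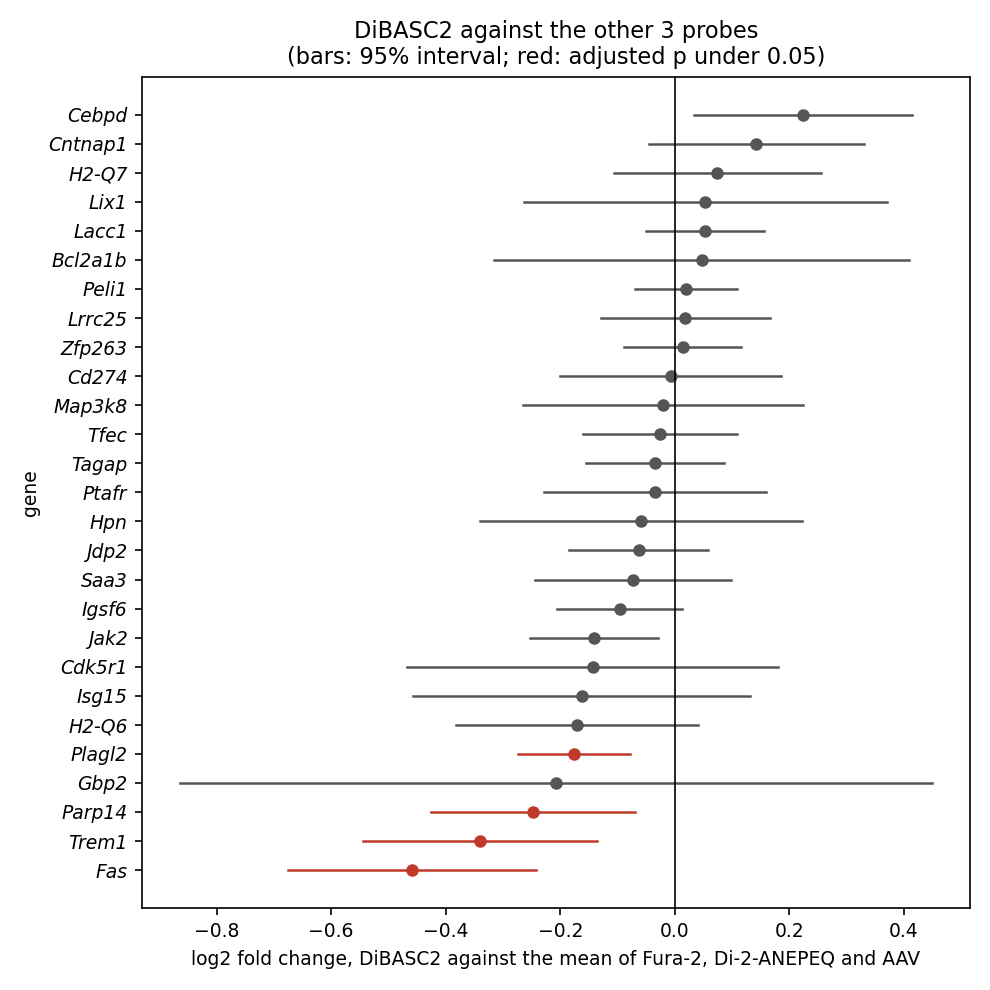
Log2 fold change of each of the 27 genes (rows) in DiBASC2 against the mean of Fura-2, Di-2-ANEPEQ and AAV (x axis), with 95% intervals on 16 residual degrees of freedom as bars. Red marks an adjusted p under 0.05: Fas (-0.46), Trem1 (-0.34), Parp14 (-0.25) and Plagl2 (-0.18).

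The other LPS-raised genes were called lower with DiBASC2 more widely in this comparison, 125 of 208 (60.1%) with 1 higher, without a test of the difference from the 27. Sorted by their nanotube ratios, 5 of the 33 genes at or under the limit of 15% above control with both were called lower (15.2%), 11 of 33 above it with a single nanotube (33.3%), 89 of 136 above it with both but not at 2 in both (65.4%) and 24 of 33 at 2 or more with both (72.7%). By LPS ratio, 3 of the 17 genes and 60 of 92 others from 2 to under 3 were called lower. From 3 to under 9 the counts were 1 of 10 and 47 of 81. The parts of the LPS ratio and of the lower control CPM of the 27 genes in these counts were not tested. Without DiBASC2 replicate 1 the counts were 1 of 27 and 109 of 208. AAV was also set against the other 3 probes, whose mean includes DiBASC2. There 45 of the other 208 genes were called higher (21.6%, against 1.69% of all genes) and none of the 27. Against control, AAV called 6 of the 208 higher and 4 lower (1.84% and 3.16% of all genes). In AAV against the other 3 probes 1 of the 27, Igsf6, had an unadjusted p under 0.05 (17.8% of all genes, edgeR adjusted p = 0.0833).

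**Figure D5:**
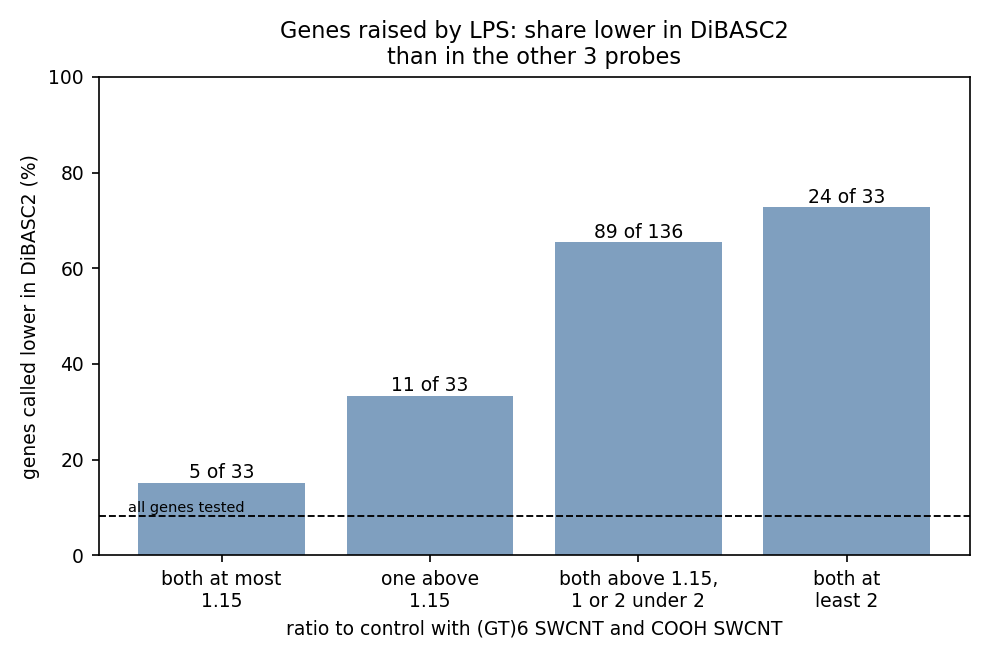
Share (y axis, percent) of the LPS-raised protein-coding genes called lower in DiBASC2 than in the other 3 probes, by the ratio of their mean CPM to control with the nanotubes (x axis), with the number of genes above each bar. The share is 15.2% where both are at most 15% above control, which includes the 27 genes, and 72.7% where both are at least 2, and the dashed line is the 8.15% of all genes tested.

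Fura-2 and Di-2-ANEPEQ against the other 3 probes called none of the 27 genes (0.145% and 0.267% of all genes), with 2 and 3 at an unadjusted p under 0.05 (5.76% and 11% of all genes), and DESeq2 called none there or with AAV. Over the 27 genes the 95% intervals of the log2 differences had a half-width of 0.09 to 0.66 in the comparisons between probes, so the smallest detectable change varied widely with abundance. Without overlap with the control libraries, 3 of the 27 genes were lower with Fura-2 (8.71% of all genes), 6 with DiBASC2 (12%), 5 with Di-2-ANEPEQ (12.3%) and 5 with AAV (12.5%), and 2, 0, 1 and 3 were higher (7.5%, 10.6%, 12% and 12.1%). For Bcl2a1b the means were 2.10, 2.16, 2.11 and 2.06 CPM in the order Fura-2, then DiBASC2, Di-2-ANEPEQ and last AAV, against 3.11 CPM in control. All 12 libraries were below every control library, yet none of the 4 comparisons passed (edgeR adjusted p = 0.264, 0.132, 0.145 and 0.0732), and they share the control libraries. Lix1 was likewise below every control library in all 12, with means of 2.16, 1.95, 1.66 and 1.81 CPM against 2.46 CPM, and was not called in any of the 4. H2-Q7 was at 0.800 and 0.804 times control with Di-2-ANEPEQ and AAV, below every control library, at adjusted p = 0.0926 and 0.0704 in edgeR. Cebpd with DiBASC2 held 15.1, 10.2 and 12.7 CPM, which overlapped control (log2 fold change 0.31 ± 0.12, SE; edgeR adjusted p = 0.128).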

How the data were processed

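The authors deposited 1 table of raw read counts per gene for 54838 mouse Ensembl gene identifiers, a column for each of 24 libraries. The submitters' processing notes name STAR 2.5.4b and GRCm38.p6, and the counting tool, strand setting and annotation release are not given in the sources used here. Symbols, types and positions came from GENCODE M21, in which 54809 identifiers matched without version suffix and 29 did not. The treatment label of the DiBASC2 libraries ends in a different digit in each, the spelling of both dyes varies between labels, and groups follow the titles.

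The count table was fitted with edgeR 4.0.16 (R 4.3.3), using filterByExpr (13116 genes kept), TMM factors and 1 quasi-likelihood fit with a mean per group over all 24 libraries (16 residual degrees of freedom, common biological coefficient of variation 4.12%). Tests were two-sided with Benjamini-Hochberg adjustment over all genes tested, called under 0.05. For the 27 genes 8 comparisons were tested, each probe other than the nanotubes against control and against the mean of the other 3. The code was tested on simulated data. Replicate pairs differed by more than sampling noise (chi-square per degree of freedom 2.52 to 20.5 in 24 pairs), and each library was counted as a replicate. Such a difference can also arise between technical replicates, so it does not show that the libraries came from separate cultures. Over the 27 genes and 8 groups the median coefficient of variation of CPM was 7.37%.

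The members and lists were chosen with earlier results of these data known. Named with library values are the 12 members of highest LPS ratio, the 12 of highest LPS level, called members, those nearest a threshold and those on a list. Other members are given by level or ratio only. One gene of the interferon list is not reported here. The alternatives were DESeq2 1.42.0, upper-quartile and total-count scaling, other low-count filters, the replicate number as a block, fits of only the groups compared, other limits of the rule, and leaving out each library.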

Additional observations from a re-analysis of the deposited data

How the results depend on the processing

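The number of genes that met the rule moved with its limits: 17 with both nanotubes at most 5% above control, 45 with at most 25%, 92 with an LPS ratio of at least 1.5 and 10 with at least 3. It was 25 to 29 when each library was left out in turn, and 18 of the 27 genes were kept in every such run. Cntnap1 was lost in 4 of the 12 runs. Across the other scalings and filters 25 of 27 were kept throughout. Upper-quartile and total-count scaling each lost Cd274 and Cntnap1 and gained Sod2, while DESeq2 size factors and no low-count filter kept all 27. The cause was not tested.

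Members called in DiBASC2 against control numbered 2, and 1 to 3 when a library was left out (1 without control replicate 1, and 3 without DiBASC2 replicate 2, with Cebpd called higher). Against the other 3 probes they numbered 4, and 1 to 5 when a library was left out (1, Fas, without DiBASC2 replicate 1, and 5 without replicate 2, with Cebpd called higher). Without a low-count filter Cebpd was also called higher in both. Counts of 0 became 1 for Di-2-ANEPEQ against control without its replicate 1 (Lix1), for AAV against control without a low-count filter (Bcl2a1b), and for AAV against the other 3 probes without Di-2-ANEPEQ replicate 1 (Igsf6). The remaining leave-out ranges were 0 to 0. The called genes Fas, Trem1, Plagl2 and Parp14 kept their direction in every alternative, and Fas kept both its calls in every alternative run (largest edgeR adjusted p 0.0462). Parp14 lost its call in 8 of 12 leave-out runs and in 3 of 6 other alternatives.

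Same-numbered libraries of different groups showed no clear shared deviation: their correlations were -0.104 to 0.0696, with 0 of 84 over 0.1. Sampling noise can hide a weak pairing with 3 libraries per group, so this does not exclude that the numbers pair the samples. With the replicate number as a block, 2 members were called in DiBASC2 against control and 3 against the other 3 probes, and other counts stayed at 0. Low counts limit Gbp2 most, with 8 reads in 2 libraries.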
